A study of Homo sapiens with 6 samples.

Results

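Windows where the ends of a pair of protein-coding genes lie side by side were examined for ATAC-seq peaks, which reads out where a transposase can cut the DNA. A pair was formed by non-overlapping protein-coding genes on chromosomes 1 to 22 and X whose facing ends were at most 1000 bp apart, in the GRCh38.p14 RefSeq gene table. The window of a pair was the gap between the genes plus 500 bp into each gene. The rule gave 2219 pairs, which used 4358 of the 39948 ends of 19974 protein-coding genes. No peak value entered the rule for the pairs. Strand was taken from the RefSeq promoter table for the 1602 pairs where it was given for both genes. Of these, 814 were head-to-head, with both 5′ ends facing the gap, 420 were head-to-tail, with the 5′ end of one gene facing the 3′ end of its neighbour, and 368 were tail-to-tail, with both 3′ ends facing. The remaining 617 pairs were not split by orientation. None of the 67 pairs on chromosome 8 was of known head-to-head orientation, so the head-to-head results leave that chromosome out.

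The libraries came from U937, a human monocytic cell line. The 3 ΔNSPs clones lacked a set of neutrophil granule proteases, the products of CTSG, ELANE and PRTN3, which were depleted together, and the 3 control lines carried control plasmids. Per the labels, all 6 lines were genetically modified and grown under geneticin at 500 µg/ml. Cells of all 6 were treated with DNase at 200 units/ml for 30 min and cryopreserved with 5% DMSO before the assay. Each ΔNSPs line is a single clone, so differences between clones and between libraries cannot be told apart.

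A head-to-head pair whose genes start close together is said to have a bidirectional promoter. In such a promoter the same nucleosome-depleted stretch serves transcription in both directions, usually within a CpG island and without a TATA box. Many housekeeping genes are arranged in this way in mammals, among them genes for DNA repair, mitochondrial proteins and chaperones, and genes for histones H2A and H2B. At a tail-to-tail pair transcription of both genes converges and ends, and no promoter of the pair lies in the gap.

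The lists of clones 1, 2 and 3 held 14262, 24977 and 2188 peaks on these chromosomes, and the lists of control lines 1, 2 and 3 held 11, 4 and 2. The lists give no read totals, so the depth of a library is not known. The fold enrichment and −log10 p of each peak imply a pile-up at its summit, with a median of 24, 18 and 27 reads in clones 1, 2 and 3. Of 15 monocyte marker genes, 5, 7 and 1 had a peak within 500 bp of an end in clones 1, 2 and 3, and none had one in a control line. That is 33.3, 46.7 and 6.67% of the marker genes, against 36.2, 26.0 and 5.84% of all 19974 protein-coding genes, so in clones 1 and 3 the markers were near the share of all genes. Marker genes of T cells, epithelium, fibroblasts and hepatocytes had none in any library, and of 5 B cell genes CD79A had a peak in clone 2. The 3 depleted genes are not members of any pair, and of them CTSG had a peak near an end in clone 2.

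The reference sequence of 6 head-to-head gaps is shown first. The first 3 are the highest-ranked distinct windows, by the rule given below, whose whole gap fits into the 300 bases of a RefSeq promoter. HSPD1/HSPE1 is the mitochondrial chaperonin pair, H2BC11/H2AC11 is a pair of core histone genes, and COL4A1/COL4A2 encodes the main chains of basement membrane collagen. The first 5 windows had a peak in all 3 clones, and the collagen window had none in any library. Each run is the plus strand, 5′ to 3′, from 250 bases before the start of the right-hand gene to 50 bases into it. Capitals mark the gap between the ends of the genes, so the lower-case bases before it belong to the left-hand gene and those after it to the right-hand gene.

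LRCH4/FBXO24: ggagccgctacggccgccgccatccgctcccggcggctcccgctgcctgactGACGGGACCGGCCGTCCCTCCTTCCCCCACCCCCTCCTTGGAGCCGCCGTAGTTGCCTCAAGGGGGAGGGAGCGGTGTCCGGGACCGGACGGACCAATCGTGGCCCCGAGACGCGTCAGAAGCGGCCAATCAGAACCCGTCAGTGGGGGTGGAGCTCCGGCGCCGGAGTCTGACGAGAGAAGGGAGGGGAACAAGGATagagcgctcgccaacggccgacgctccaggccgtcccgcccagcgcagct
SIRT2/NFKBIB: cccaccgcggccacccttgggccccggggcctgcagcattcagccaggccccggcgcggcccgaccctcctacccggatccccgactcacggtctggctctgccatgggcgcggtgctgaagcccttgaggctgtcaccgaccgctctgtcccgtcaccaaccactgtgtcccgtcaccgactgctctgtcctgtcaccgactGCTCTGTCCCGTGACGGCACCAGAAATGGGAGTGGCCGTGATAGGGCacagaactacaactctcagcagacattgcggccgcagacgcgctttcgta
CAB39L/SETDB2: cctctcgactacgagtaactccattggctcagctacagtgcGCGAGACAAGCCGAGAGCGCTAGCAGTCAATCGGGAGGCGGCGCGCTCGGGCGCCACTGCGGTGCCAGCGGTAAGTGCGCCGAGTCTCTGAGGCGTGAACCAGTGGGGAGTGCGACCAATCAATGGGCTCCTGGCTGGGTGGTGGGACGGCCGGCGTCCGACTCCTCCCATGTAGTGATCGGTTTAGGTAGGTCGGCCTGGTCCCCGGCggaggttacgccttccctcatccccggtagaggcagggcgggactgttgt
HSPD1/HSPE1: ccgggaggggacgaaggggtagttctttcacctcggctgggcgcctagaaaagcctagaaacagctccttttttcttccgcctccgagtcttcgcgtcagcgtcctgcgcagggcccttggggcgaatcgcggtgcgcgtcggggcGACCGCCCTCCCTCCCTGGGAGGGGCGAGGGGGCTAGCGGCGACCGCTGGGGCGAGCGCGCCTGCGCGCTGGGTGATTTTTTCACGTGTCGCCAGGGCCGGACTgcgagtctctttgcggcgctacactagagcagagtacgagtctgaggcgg
H2BC11/H2AC11: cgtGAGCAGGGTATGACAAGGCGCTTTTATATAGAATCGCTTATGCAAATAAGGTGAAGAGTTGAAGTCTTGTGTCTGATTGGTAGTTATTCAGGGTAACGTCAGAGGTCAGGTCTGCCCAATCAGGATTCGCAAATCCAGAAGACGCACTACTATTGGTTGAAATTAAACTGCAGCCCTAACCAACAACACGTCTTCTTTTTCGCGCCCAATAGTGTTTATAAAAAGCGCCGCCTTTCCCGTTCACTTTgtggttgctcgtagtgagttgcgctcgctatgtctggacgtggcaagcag
COL4A1/COL4A2: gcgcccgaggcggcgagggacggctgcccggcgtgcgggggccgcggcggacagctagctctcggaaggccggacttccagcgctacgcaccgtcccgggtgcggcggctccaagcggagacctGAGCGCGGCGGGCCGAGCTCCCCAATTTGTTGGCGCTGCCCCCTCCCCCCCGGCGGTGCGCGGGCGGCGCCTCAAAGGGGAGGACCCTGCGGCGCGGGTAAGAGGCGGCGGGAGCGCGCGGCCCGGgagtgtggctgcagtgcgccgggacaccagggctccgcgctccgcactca

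These runs lie, on GRCh38.p14, at chr7:100586078-100586377 for LRCH4/FBXO24 and at chr19:38899416-38899715 for SIRT2/NFKBIB. Those of CAB39L/SETDB2 and HSPD1/HSPE1 lie at chr13:49444024-49444323 and chr2:197500129-197500428, and those of H2BC11/H2AC11 and COL4A1/COL4A2 at chr6:27132793-27133092 and chr13:110307034-110307333. The gaps were 198, 47, 209, 104, 247 and 126 bp long in the order printed. GC content was lowest in the histone run, at 46.3%, and was 71.7, 66.7, 65.0, 67.0 and 77.7% in the runs of LRCH4/FBXO24, SIRT2/NFKBIB, CAB39L/SETDB2, HSPD1/HSPE1 and COL4A1/COL4A2. The histone run held the letters TATAAA 3 times and CCAAT 4 times over both strands, and no other run held TATAAA. The collagen run, with no peak in any library, had the highest GC content of the 6.

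Paired windows carried peaks in the ΔNSPs clones and in no control line. Clones 1, 2 and 3 had a peak at 1027, 779 and 224 of 2219 windows, and control lines 1, 2 and 3 at 0, 0 and 0. The mean was 677 ± 411 windows in the clones and 0 ± 0 in the control lines (SD, n = 3 each). The difference of the group means on log10(windows + 1) was 2.75, with an exact two-sided permutation p = 0.1, the smallest that 3 libraries against 3 allow. The groups did not overlap. Clone 1 had more such windows than clone 2, although its list was shorter, and clone 3 had the fewest. The control lists were nearly empty everywhere, so this difference cannot be told apart from the difference in list length. With peaks of fold 5 or more only, the log10 difference was 1.55.

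A window is called shared here when 2 or more clones had a peak there while no control line did. Of the 2219 paired windows, 686 were shared (30.9%). Over all protein-coding gene ends, with 500 bp either side, the shared fraction was 10.4% (4171 of 39948), and over the 35590 ends in no pair it was 8.27%. Paired windows are wider than these end windows by the length of the gap. They also hold both facing ends, whereas an end window is centred on a single 5′ or 3′ end. Of 5′ ends in no pair, 18.1% were shared (2460 of 13579). A peak in all 3 clones was found at 188 paired windows (8.47%), against 2.39% of all gene ends. The reverse, with peaks in 2 or more control lines and none in the clones, occurred at 0 paired windows and at 0% of gene ends. With control lists this short that count could hardly be above 0, so nothing is read from it. Single clones reached 18.7, 13.5 and 2.98% of all gene ends in clones 1, 2 and 3, and control lines 1, 2 and 3 reached 0.0025, 0 and 0%. The count of 686 was 195 without clone 1, 214 without clone 2 and 653 without clone 3. The lower counts are the windows that clone 3, with the shortest list, had in common with clone 2 or with clone 1. It was 349 with a −log10 q of 5 or more, 166 with lists of equal length and 17 with a fold of 5 or more.

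Orientation separated the windows. Head-to-head windows had a peak at 586, 453 and 129 of 814 in clones 1, 2 and 3, or 72.0, 55.7 and 15.8%. Head-to-tail windows, with a single facing 5′ end, had one at 45.5, 36.4 and 8.81% of 420. Tail-to-tail windows, with none, had one at 3.53, 4.89 and 0.815% of 368. In every clone the order was head-to-head, then head-to-tail, then tail-to-tail. The head-to-head share exceeded that of all other windows of known orientation by 46.1, 33.95 and 10.8 percentage points in clones 1, 2 and 3. The means were 47.8 ± 28.9% in head-to-head and 17.6 ± 11.01% in other windows (SD, n = 3 clones), a difference of 30.3 points (exact two-sided sign-flip permutation p = 0.25, the smallest that 3 clones allow). It was 17.7 points with a −log10 q of 5 or more, 9.26 points with lists of equal length, and 1.63 points with a fold of 5 or more (exact sign-flip permutation p = 0.5).

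The same order held in the sharing between clones. Shared windows made up 401 of 814 head-to-head windows (49.3%), 131 of 420 head-to-tail windows (31.2%) and 8 of 368 tail-to-tail windows (2.17%). No clone had a peak at 157 head-to-head windows (19.3%), 203 head-to-tail windows (48.3%) and 344 tail-to-tail windows (93.5%). Among head-to-head windows, 110 had a peak in all 3 clones and 274 in clones 1 and 2 alone. A peak in clone 1 alone was found at 189 head-to-head windows, in clone 2 alone at 65 and in clone 3 alone at 2. Of the 129 head-to-head windows of clone 3, 95.3% also had a peak in clone 1 and 88.4% in clone 2. These 123 and 114 windows were 21.0% of the windows of clone 1 and 25.2% of those of clone 2. Clones 1 and 2 shared 384 windows, which were 65.5% of those of clone 1 and 84.8% of those of clone 2.

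**Figure D1:**
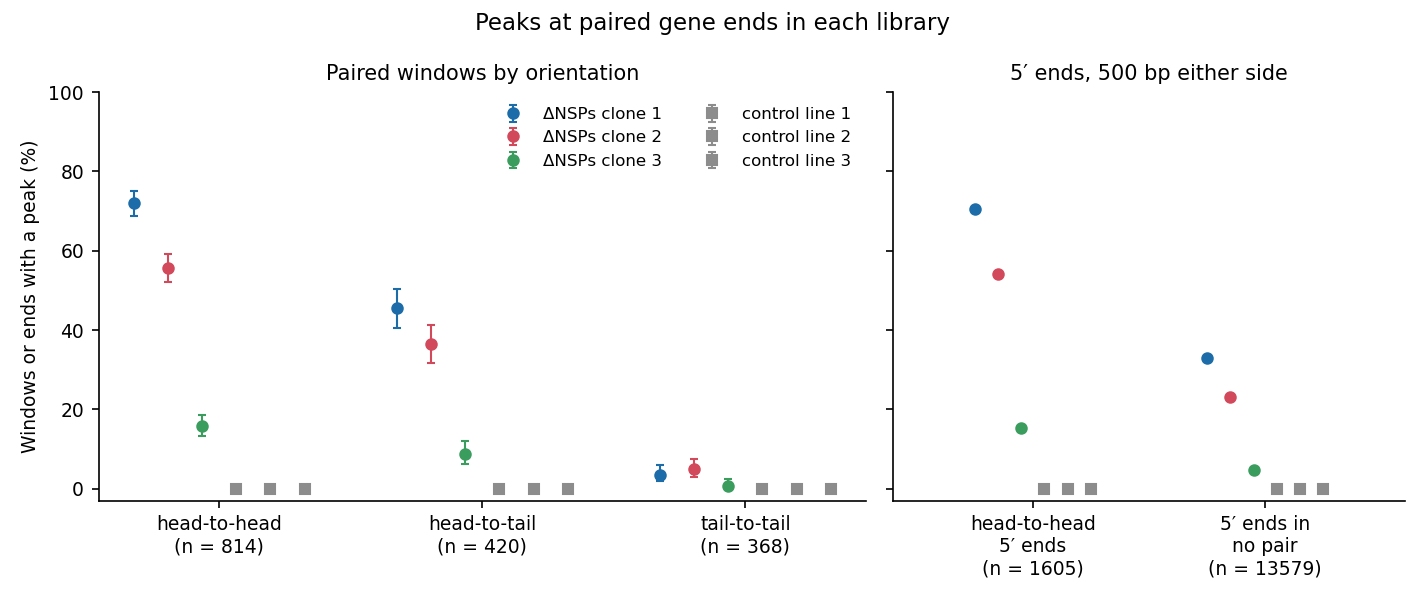
Share of windows (left) and of 5′ ends with 500 bp either side (right) that hold a peak, in percent, for each library; bars on the left are 95% intervals by the exact Clopper-Pearson method, covering counting error alone and taking windows as independent. In each ΔNSPs clone the points step down from head-to-head to tail-to-tail windows and from head-to-head to unpaired 5′ ends, and all control lines sit at 0.

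A 5′ end in a head-to-head pair carried a peak more often than a 5′ end in no pair, in windows of equal width. Within 500 bp of the end, clones 1, 2 and 3 had a peak at 70.5, 54.1 and 15.3% of 1605 head-to-head 5′ ends, against 33.0, 23.2 and 4.71% of 13579 unpaired 5′ ends. The ratio was 2.14, 2.34 and 3.25 in clones 1, 2 and 3. The difference was 26.4 ± 14.0 percentage points (SD, n = 3 clones; exact sign-flip permutation p = 0.25, the smallest possible). It was 16.6 points with a −log10 q of 5 or more, 9.63 points with lists of equal length and 2.00 points with a fold of 5 or more (exact sign-flip permutation p = 0.5). A close partner places a second 5′ end inside the same window. At the 118 head-to-head ends whose partner lay over 500 bp away, and so outside the window, the shares were 66.9, 53.4 and 16.1%. Those ends differed from the 1487 with a closer partner by −3.80, −0.81 and 0.83 points in clones 1, 2 and 3 (mean −1.26 ± 2.35, SD, n = 3 clones; exact sign-flip permutation p = 0.75). The sign of that difference was not the same in all clones.

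Peak summits gathered in the gap of head-to-head pairs. The summit lay between the facing ends for 341 of 610 peaks in clone 1, 340 of 494 in clone 2 and 76 of 125 in clone 3. These shares were 55.9, 68.8 and 60.8%, while the gap made up 18.05% of the length of head-to-head windows. The median distance of a summit from the middle of the gap was 89, 69.5 and 83.5 bp in clones 1, 2 and 3. At head-to-tail pairs 52.3, 56.6 and 57.9% of the summits lay in the gap, which made up 33.7% of the window length. Of head-to-tail summits, 85.7, 77.1 and 78.9% lay nearer to the facing 5′ end than to the facing 3′ end. Tail-to-tail gaps held 3 of 15, 5 of 20 and 0 of 4 summits, where the gap made up 29.1% of the length. Over all paired windows the share of summits in the gap exceeded its share of length by 34.2 points (exact sign-flip permutation p = 0.25, n = 3 clones, the smallest possible), and by 22.2 points with a fold of 5 or more.

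**Figure D2:**
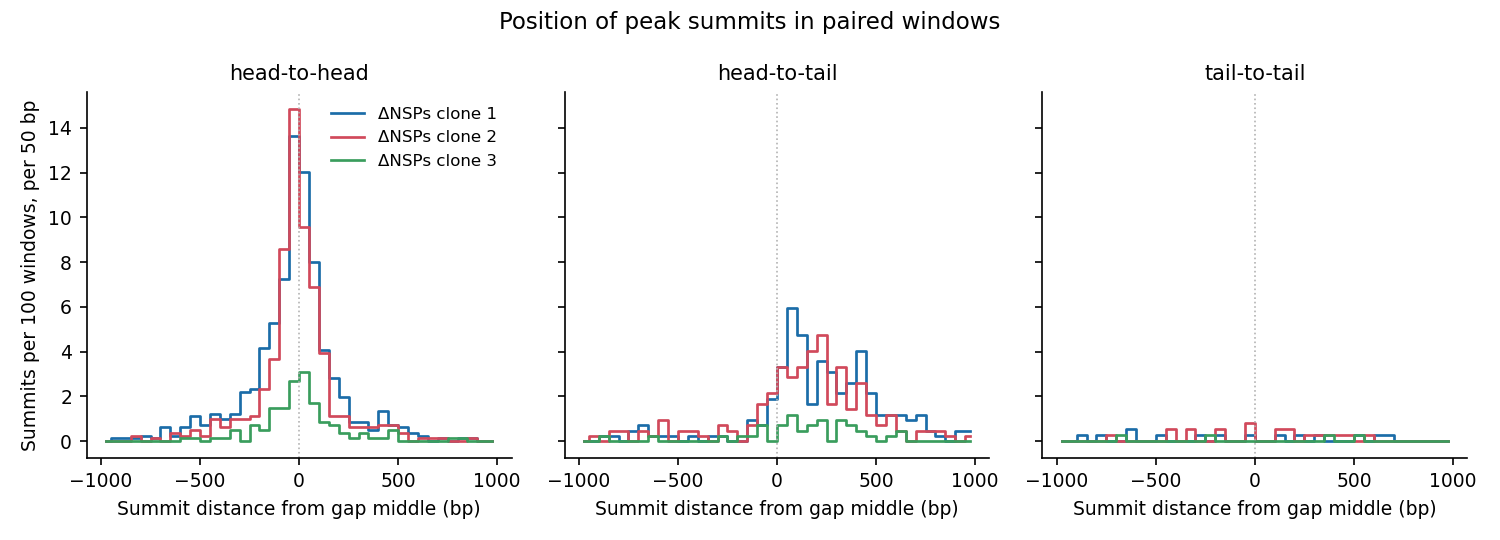
Peak summits per 100 windows in bins of 50 bp, by distance from the middle of the gap in bp, for the 3 ΔNSPs clones in head-to-head, head-to-tail and tail-to-tail windows; head-to-tail windows are turned so that the facing 5′ end lies to the right. Head-to-head summits form a central peak of up to 14.9 per 100 windows (clone 2), head-to-tail summits lie to the right of the middle, and tail-to-tail summits are few.

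The share of head-to-head windows with a peak was lowest for the shortest gaps. For gaps of up to 100 bp, 60.5, 39.0 and 8.10% of 210 windows had a peak in clones 1, 2 and 3. For gaps over 100 and up to 250 bp the shares were 73.6, 58.6 and 16.9% of 360 windows. They were 78.8, 65.2 and 21.2% of 184 windows over 250 and up to 500 bp, and 81.7 and 66.7% in clones 1 and 2, with 12 of 60 windows in clone 3, over 500 bp. A longer gap also makes a longer window. In a fixed window of 1000 bp around the middle of the gap the clones had the same 60.5, 39.0 and 8.10% for the shortest gaps, and 63.3% of the longest were shared, against 30.5% of the shortest. Every clone had its lowest share in the shortest class in either window. At the limit of the rule, pairs of any orientation with gaps over 900 and up to 1000 bp were shared at 27 of 133 windows (20.3%), and pairs just outside it, with gaps up to 1100 bp, at 15 of 87 (17.2%).

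**Figure D3:**
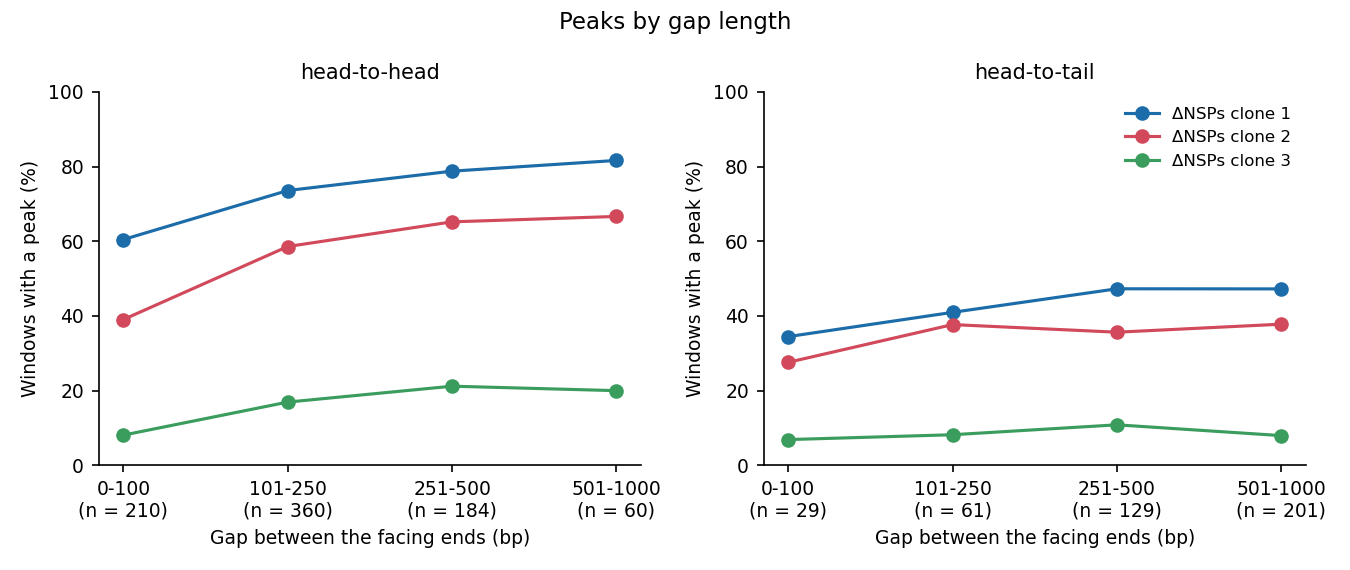
Share of windows with a peak, in percent, against the length of the gap between the facing ends in bp, for head-to-head (left) and head-to-tail (right) pairs in the 3 ΔNSPs clones. Head-to-head shares are lowest at gaps of up to 100 bp in each clone, with 60.5, 39.0 and 8.10% in clones 1, 2 and 3.

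Many head-to-head peaks reached across the whole gap. A peak covered both facing 5′ ends at 275 head-to-head windows in clone 1, 76 in clone 2 and 21 in clone 3. That was 43.8, 14.9 and 16.0% of the overlaps between peaks and windows. Clone 1 also had the widest head-to-head peaks, with a median of 341.5 bp, where clones 2 and 3 had 147.5 and 181 bp. This order was not particular to head-to-head windows. Peaks at neither head-to-head windows nor unpaired 5′ ends had median widths of 221, 95 and 162 bp in clones 1, 2 and 3. Whether the covering shares differ between clones beyond peak width was not tested. For gaps of up to 100 bp the covering share was 63.4, 36.5 and 35.3%, and for gaps over 250 and up to 500 bp it was 27.4, 2.90 and 7.5%. Over pairs of any orientation, the widest peaks covering both facing ends in clone 1 were at SHARPIN/MAF1 with 1505 bp, at H2BC21/H2AC20 with 1398 bp and at ATAD2B/UBXN2A with 1260 bp. In clone 2 they included H2BC11/H2AC11 with 448 bp and LIG1/ZSWIM9 with 438 bp. In clone 3 they were at HPD/PSMD9 with 597 bp, at CCPG1/PIERCE2 with 564 bp and at LONP1/CATSPERD with 555 bp. LONP1, a protease of the mitochondrial matrix, shares its window with a gene of the sperm calcium channel. Where clones shared a head-to-head window, their peaks usually overlapped. Peaks of clones 1 and 2 overlapped in 368 of 384 shared windows, those of clones 1 and 3 in 123 of 123, and those of clones 2 and 3 in 106 of 114. The median distance between their highest-ranked summits was 64, 57 and 76.5 bp.

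Head-to-head peaks were set against peaks at unpaired 5′ ends of the same list. Their median width was 341.5 against 316 bp in clone 1, 147.5 against 126 bp in clone 2 and 181 against 190 bp in clone 3. The median fold, the authors' own value, was 3.46, 3.55 and 2.80 at head-to-head windows, against 3.52, 3.62 and 2.96 at unpaired 5′ ends. The median implied pile-up was 30, 33 and 40 reads at head-to-head windows in clones 1, 2 and 3, against 28, 30 and 33 reads at unpaired 5′ ends. The fold was lower and the pile-up higher at head-to-head windows in 3 of 3 clones (exact sign-flip permutation p = 0.25 each, the smallest possible), whereas the sign for width differed between clones. The remaining peaks of each list had lower pile-ups, with medians of 22, 17 and 23 reads, but higher folds of 3.56, 4.26 and 3.63. The implied local background was 7.90, 8.68 and 14.2 reads at head-to-head windows and 5.41, 2.96 and 5.57 reads at those remaining peaks.

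Among head-to-head windows with a peak in all 3 clones, the 12 with the smallest sum of ranks by −log10 q were named by rule. CDCA3/USP5 stood first, with a gap on chromosome 12 from 6851287 to 6852149. CDCA3 promotes entry into mitosis and USP5 is a deubiquitinating enzyme. The highest-ranked peaks had folds of 4.49, 6.14 and 3.165 in clones 1, 2 and 3, on pile-ups of 77, 79 and 67 reads. This window held 6 peaks over the 3 clones. All 3 clones had a summit inside USP5, and clone 2 alone had one in the gap on the side of CDCA3, with its summit at −318 bp from the middle of the gap (negative to the left). LRCH4/FBXO24, whose gap is printed above, had folds of 2.86, 4.17 and 1.93 on pile-ups of 143, 139 and 95 reads. All 3 summits lay inside FBXO24, which encodes an F-box protein. MBD4, a glycosylase that removes mismatched thymine, and IFT122, a protein of ciliary transport, had folds of 5.42, 4.84 and 2.89. The peaks of clones 1 and 3 covered both starts. SIRT2, an NAD-dependent deacetylase, lies 47 bp from NFKBIB, an inhibitor of NF-kB. Its window had folds of 3.68, 6.42 and 2.29, and the peak covered both starts in 3 of 3 clones.

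RPL18, a protein of the large ribosomal subunit, faces SPHK2, a sphingosine kinase, over a gap of 327 bp, and all 3 summits lay in the gap. CAB39L, an adaptor of the kinase LKB1, faces SETDB2, a histone methyltransferase, and the readthrough gene SETDB2-PHF11 shares the same gap. Folds there were 2.64, 3.16 and 1.95 on pile-ups of 147, 112 and 100 reads, with every peak covering both starts. PKLR, the pyruvate kinase of liver and red cells, faces FDPS, an enzyme of the mevalonate pathway. That window had folds of 2.69, 5.14 and 2.135, and its −log10 q of 48.9 in clone 2 was the highest of all head-to-head windows in that clone. C19orf47/PLD3 had folds of 3.42, 7.04 and 2.66, and XRCC3/ZFYVE21 2.58, 3.40 and 2.205. PLD3 is a lysosomal exonuclease, and XRCC3 acts in homologous recombination. CCPG1, a receptor for autophagy of the endoplasmic reticulum, faces PIERCE2, and folds were 5.31, 7.225 and 3.25.

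HSPD1 and HSPE1 encode the ring and the lid of the mitochondrial chaperonin. Their window had folds of 3.67, 2.73 and 2.455 in clones 1, 2 and 3, on pile-ups of 130, 91 and 106 reads. All 3 highest summits lay inside HSPD1 and not in the gap of 104 bp. In clone 2 the highest-ranked summit lay at −444.5 bp from the middle of the gap, and that of a weaker peak, of fold 2.45, at −83.5 bp. The window is also counted for the readthrough gene HSPE1-MOB4.

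**Figure D4:**
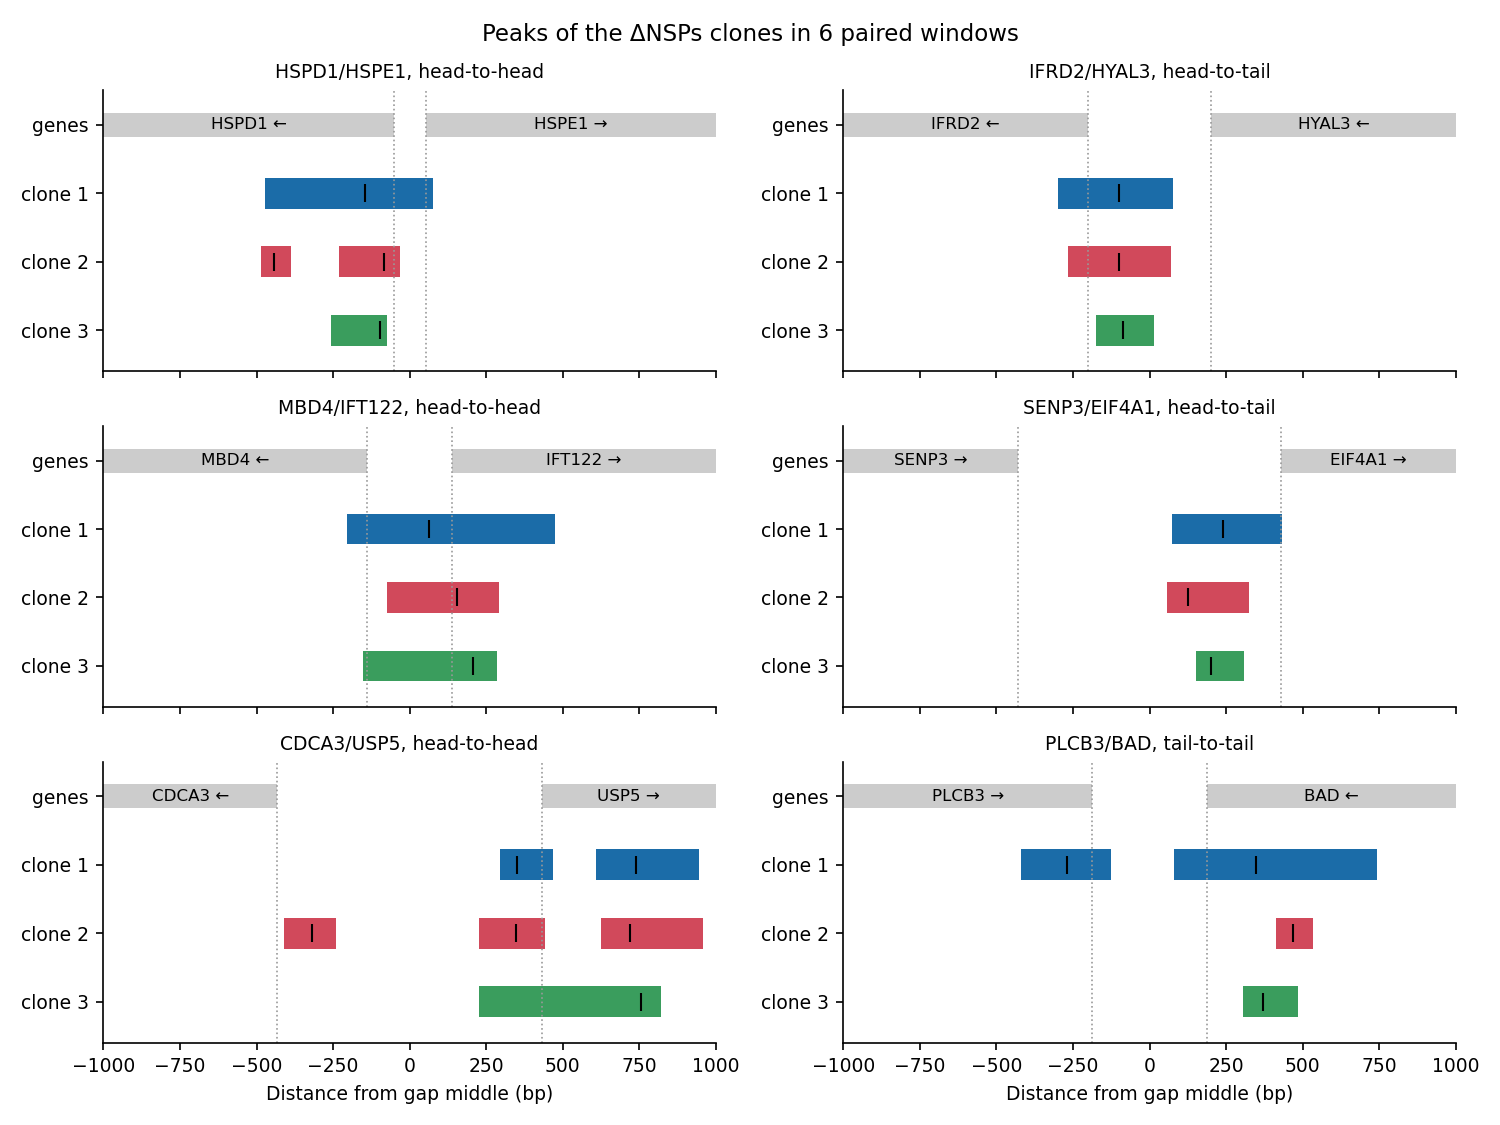
Peaks of the ΔNSPs clones as bars, with the summit as a tick, against the distance from the middle of the gap in bp, in 3 head-to-head, 2 head-to-tail and 1 tail-to-tail windows; grey boxes are the genes with arrows for their strand, and dotted lines mark the facing ends. The HSPD1/HSPE1 summits lie inside HSPD1, the IFRD2/HYAL3 and SENP3/EIF4A1 peaks lie on the side of the facing 5′ end, and the PLCB3/BAD summits lie inside the genes.

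At head-to-tail pairs with a peak in all 3 clones, the 4 highest-ranked windows had every highest summit in the gap. IFRD2 starts opposite the 3′ end of HYAL3, a hyaluronidase family gene, and its folds were 4.13, 5.60 and 2.42 in clones 1, 2 and 3. The summits of the clones lay at −100.5, −100.5 and −86.5 bp from the middle of the gap, on the side of IFRD2. NEU1, a lysosomal sialidase, starts opposite the 3′ end of SLC44A4, with folds of 3.27, 5.96 and 2.205. GMPPB, which makes GDP-mannose, starts opposite IP6K1, an inositol hexakisphosphate kinase, with 3.91, 4.30 and 2.39. EIF4A1, a translation initiation helicase, starts opposite the 3′ end of SENP3, a SUMO protease. Its folds were 3.34, 5.515 and 2.19, and the summits lay 239, 126 and 201 bp right of the middle, towards EIF4A1.

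Tail-to-tail windows with a peak in all 3 clones were only H2AC20/H2AC21 and PLCB3/BAD. H2AC20 and H2AC21 are short histone genes on chromosome 1 with a gap of 57 bp. Their window held 7 peaks over the clones, with folds of 5.115, 3.98 and 2.71 for the highest-ranked. The gap of H2BC21/H2AC20 ends at 149886917 and this window starts at 149886912, so it also holds the 5′ end of H2AC20. The highest-ranked summit of clone 1, at 149886952, lay inside H2AC20 near that 5′ end. That of clone 2 lay inside H2AC21. That of clone 3, at 149886748, lay outside the window, in the gap of H2BC21/H2AC20. The clone 1 peak in this window, 1398 bp wide, is the one that also covers H2BC21/H2AC20. PLCB3, a phospholipase C, and BAD, a promoter of apoptosis, had folds of 5.19, 2.73 and 2.87, with the highest-ranked summits inside BAD. Of the 368 tail-to-tail windows, 6 held a known 5′ end of a coding or long non-coding gene, and 2 of these 6 had a peak in any clone. Of the 362 without one, 22 (6.08%) had a peak in any clone and 6 (1.66%) were shared.

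Some windows had a peak in a single clone. The highest-ranked in clone 1 alone were USP19/LAMB2, of fold 5.82, and PLEC/PARP10, of fold 6.23. In clone 2 alone they were TMEM62/CCNDBP1, of fold 5.48, and STX10/IER2, of fold 5.90. In clone 3 alone they were DIDO1/GID8, of fold 3.02, and BORCS8-MEF2B/RFXANK, of fold 2.45. IER2 is an immediate early gene, and its peak in clone 2 covered both starts across a gap of 35 bp.

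Of 50 neighbouring gene pairs listed from textbook knowledge, the rule found 29, and 18 of these (62.1%) were shared, against 30.9% of all paired windows. Of the 21 that were head-to-head, 14 (66.7%) were shared, against 49.3% of all head-to-head windows. Besides HSPD1/HSPE1, a peak in all 3 clones was present at 5 of them. GART, a purine synthesis enzyme, and SON, a splicing cofactor, had folds of 2.615, 4.22 and 2.44 in clones 1, 2 and 3, with every summit in the gap. TMEM258, a subunit of oligosaccharyltransferase, and FEN1, the flap endonuclease of DNA replication, had 5.61, 4.135 and 4.015 on pile-ups of only 21, 17 and 16 reads. HNRNPA2B1, an RNA-binding protein, and CBX3, the heterochromatin protein HP1 gamma, had 3.495, 4.18 and 2.48. H2BC11/H2AC11 had 3.76, 3.195 and 2.08, with a peak over both starts in 3 of 3 clones. H2BC12/H2AC12, whose orientation was not given, had 4.24, 4.39 and 3.79.

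Clones 1 and 2, but not clone 3, had a peak at 12 textbook pairs. ATM, the kinase that signals DNA double-strand breaks, faces NPAT, a coactivator of histone transcription, with folds of 3.655 and 3.09 in clones 1 and 2. TAP1, the peptide transporter of antigen presentation, faces PSMB9, an immunoproteasome subunit, with 3.46 and 2.925. KARS1, a lysyl-tRNA synthetase, and TERF2IP, the telomere protein RAP1, had 3.66 and 4.73. SARS2, the mitochondrial seryl-tRNA synthetase, and MRPS12 had 2.20 and 3.87. COL4A4/COL4A3 had 2.89 and 2.58, below the head-to-head medians of 3.46 and 3.55. The peaks of clones 1 and 2 at COL4A4/COL4A3 did not overlap, and both summits lay inside COL4A4. The clone 2 peak had a −log10 q of 2.35, near the start of its list at about 2. Only clone 1 had a peak at SIRT3/PSMD13, KBTBD4/NDUFS3, GTF2H4/VARS2 and PRKDC/MCM4, and only clone 2 at HARS1/HARS2 and VPS52/RPS18. None of the clones had a peak at COL4A1/COL4A2, COL4A6/COL4A5, H2BC8/H2AC8, SURF1/SURF2 or CTXN1/TIMM44. Of the 3 collagen IV windows, all head-to-head, 1 carried peaks.

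Histone and DNA repair genes often had shared windows, in lists that mix orientations. Replication-dependent histone genes took part in 22 pairs, of which 13 (59.1%) were shared, against 30.9% of all pairs. In clones 1, 2 and 3 the counts were 15, 15 and 7 of 22. Of their 13 head-to-head pairs, 8 were shared (61.5%, against 49.3% of all head-to-head windows). H2BC13/H2AC13 had folds of 4.24, 3.97 and 2.66, and H2BC4/H2AC6 had 3.04, 3.59 and 3.09. Neither H2AC1/H2BC1 nor H2BC8/H2AC8 had a peak in any clone. Some histone windows share peaks. The same peaks of clones 1 and 3 lie in the windows of H2BC21/H2AC20, H2BC21/H2AC21 and H2AC20/H2AC21, so these windows are not independent. The head-to-tail window of H2BC21/H2AC21, which spans H2AC20, held 8 peaks over the clones, the most of all paired windows. Genes of DNA repair and replication took part in 59 pairs, of which 27 (45.8%) were shared. Among their 33 head-to-head pairs it was 21 (63.6%, against 49.3% of all head-to-head windows). VPS35, a retromer subunit, and ORC6, of the origin recognition complex, had folds of 3.79, 3.41 and 3.15. PMS2, of mismatch repair, and AIMP2, a scaffold of tRNA synthetases, had 3.055, 3.18 and 2.145. TOPBP1/TF, head-to-head with a gap of 56 bp, and HPDL/MUTYH, tail-to-tail, had none.

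Mitochondrial ribosomal protein genes had shared windows at 14 of 35 pairs, against 30.9% of all pairs, and at 11 of 17 head-to-head pairs (64.7%, against 49.3% of all head-to-head windows). PPP1R10/MRPS18B had folds of 2.75, 4.75 and 3.13, TCP1/MRPL18 had 2.11, 4.30 and 2.07, and APBA3/MRPL54 had 3.28, 3.42 and 2.88. At TCP1/MRPL18 the highest-ranked peak of clone 2 began at 159790309, where the window ends at 159790311. Its summit, at 159790369, lay outside the window, while the summits of clones 1 and 3 lay in the gap. TCP1 is a subunit of the cytosolic chaperonin. CYB5RL/MRPL37 and METTL25B/MRPL24 had none. Chaperone genes had shared windows at 8 of 23 pairs (34.8%) and 5 of 10 head-to-head pairs, both near the shares of all pairs, with no peak at FXR1/DNAJC19 and at HSPA1L/HSPA1A, the inducible HSP70 gene. Oxidative phosphorylation genes had 10 of 34 (29.4%) and 9 of 17 head-to-head pairs (52.9%), also near those shares. WDR4/NDUFV3, with a subunit of complex I, had folds of 2.465, 3.425 and 2.74, whereas WDR77/ATP5PB and CPSF4/ATP5MF had none.

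Cytoplasmic ribosomal protein genes had shared windows at 7 of 30 pairs (23.3%, against 30.9% of all pairs) and at 5 of 12 head-to-head pairs (41.7%, against 49.3%). Of the 30 pairs, 7 were tail-to-tail. RPL41/ZC3H10 had folds of 3.49, 4.98 and 2.66, and SNAPC5/RPL4 had 5.36, 4.03 and 2.48. RPS27/NUP210L and RPS27A/MTIF2, both tail-to-tail, had none. Zinc finger genes had 13 of 48 (27.1%), near the share of all pairs, and 7 of 23 head-to-head pairs (30.4%, against 49.3%). ZNF324/ZNF446 had folds of 4.27, 3.695 and 2.55, MYL11/ZNF48 had 5.05, 5.03 and 2.85, and UCKL1/ZNF512B had 3.35, 3.46 and 3.75. At UCKL1/ZNF512B these highest-ranked peaks did not overlap between clones. The clone 3 summit there, at 63957444, lay outside the window, and the clone 2 peak had a pile-up of only 12 reads. No clone had a peak at ZNF672/ZNF692 or ZNF721/PIGG. Families restricted to certain tissues, such as olfactory receptors, keratins and protocadherins, took part in 14 pairs, of which 4 were head-to-head. None of the 14 had a peak in any library, NLRP3/OR2B11 and PCDHB16/PCDHB9 among them, where 47.9% of all paired windows had none. Monocyte marker genes took part in 5 pairs, none of known head-to-head orientation. Of these 5, 1 was shared, EIF4A1/CD68, with folds of 3.98, 4.49 and 3.08. HMGXB3/CSF1R had a peak in clone 2 alone, of fold 6.37, HCST/TYROBP had one in clone 1 alone, of fold 2.63, and CSF1R/PDGFRB had none.

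Some sequence features of promoters differed between head-to-head windows with and without peaks, and none was tested. The 300-base RefSeq promoters at head-to-head ends had a median GC content of 64.7% at shared windows (730 promoters) and 63.0% at windows with no peak in any clone (274). Observed over expected CpG was 0.894 and 0.8095, where 1 is the frequency from base content alone. Over all 35116 promoters of the table these medians were 58.7% and 0.579. At unpaired 5′ ends CpG was 0.877 at shared ends and 0.494 at ends with no peak, a wider gap than between head-to-head windows. The letters CCAAT, on either strand, were in 54.0% of head-to-head promoters at shared windows, 32.9% of those with no peak and 34.6% of all promoters. GGGCGG, the GC box, was in 75.6, 56.6 and 44.95%. TGCGCA, part of the site read by NRF1, was in 19.6, 11.3 and 8.24%, and CCGGAAG, an ETS site core, in 29.6, 25.2 and 10.3%. ATGGCGG, a YY1 site core, was in 14.8, 13.1 and 5.55%, and TATAAA in 3.97, 5.47 and 11.5%. At unpaired 5′ ends GGGCGG was in 75.9% of promoters at shared ends and 43.1% of those with no peak, TGCGCA in 17.9 and 6.68%, CCGGAAG in 21.99 and 6.71%, and CCAAT in 46.5 and 34.7%. For the first 3 of these the contrast was wider at unpaired than at head-to-head ends. Promoters of a close pair overlap, so they are not independent. Matches of letters do not show that a factor was bound.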

How the data were processed

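Chromatin accessibility was measured in 6 ATAC-seq libraries, grouped by sample title into 3 ΔNSPs clones and 3 control lines. Per the submitters' processing notes, FastQC, Bowtie2, Picard and MACS2 were used with build GRCh38. Versions, settings and any read shift: not given in the sources used here. The authors deposited 1 peak list per library. The deposited lists give per summit a fold enrichment (a ratio over local background), −log10 values of p and q, and a score that restates the −log10 q and plays no part here. Every list starts at a −log10 q of about 2.

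Lines with the same interval were merged into 1 peak, keeping the highest summit, on chromosomes 1 to 22 and X. A summit offset below 0, in 127 lines of clone 2, was set to 0. A window had a peak when they overlapped by 1 bp or more. The 2219 pairs included 439 genes in more than 1 pair, 2170 distinct gaps and 87 gaps crossed by another coding gene. At 680 of 814 head-to-head pairs both facing ends were RefSeq promoter starts, at 127 only 1 was. The pile-up was solved from the fold and the p as a Poisson tail, to within 0.02 of the −log10 p for 100% of peaks. Peaks were ranked by −log10 q within a list. Sequences come from RefSeq (GRCh38.p14). Python 3.11.15, numpy 2.4.6, pandas 2.3.3 and scipy 1.17.1 were used, and overlaps were tested on simulated peaks.

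Groups were compared with exact two-sided permutation tests over libraries, and shares within clones with exact sign-flip tests over the 3 clones. Neither can reach 0.05 here. A p-value takes its smallest possible value whenever the groups separate or the clones agree in sign. The spread between these libraries is given by the SD. Gene lists are described by counts, without a test. The members and lists were chosen with earlier results of these data known. Named pairs are the 12 highest-ranked head-to-head pairs, up to 4 head-to-tail and 4 tail-to-tail pairs, 2 per clone alone, the textbook pairs, up to 3 with and 2 without peaks per list, the widest peaks over both starts and the windows with most peaks. No paired window had a control peak. Not every pair chosen by this rule is described, and the counts include them all. Alternatives were the peak threshold, overlap, window, gap limit, list length, each library left out and the replicate block.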

Additional observations from a re-analysis of the deposited data

How the results depend on the processing

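No difference of means changed direction under any alternative run. With a fold of 5 or more, both head-to-head differences had an exact sign-flip permutation p = 0.5. That value means that not every clone had a positive difference. The difference between ΔNSPs clones and control lines in windows with a peak ranged from 1.55 to 2.95 on log10(windows + 1). With library numbers taken as pairs (replicate block) it was 2.75, with an exact sign-flip permutation p = 0.25, the smallest that 3 pairs allow. The labels do not say that a number marks a shared batch, and the control lines, all at 0, could not be checked for pairing. The number of shared windows, 686, was 349 with a −log10 q of 5 or more, 17 with a fold of 5 or more and 166 with lists of 2188 peaks per clone. It was 195 to 686 with a library left out, lowest without clone 1 (195) and clone 2 (214), and 653 without clone 3. Without clone 1 or clone 2, the count is of the windows that clone 3 had in common with the clone that was left. The cause of the other changes was not tested. Under the 12 other alternatives of 17, the number of shared windows was within 1.5 times. The head-to-head excess over other windows was 1.63 to 40.03 points over 15 alternatives, lowest with a fold of 5 or more, and that of head-to-head over unpaired 5′ ends was 2.00 to 34.2 points over 10. The share of summits in the gap exceeded its share of length by 22.2 to 40.4 points over 7. The fixed window around the gap, the removal of crossed gaps, the removal of chromosomes 6 and 19 and of ends facing a long non-coding gene were chosen after seeing the data. Read totals are unknown, so a window without a peak is not shown to be closed, and this weighs most on clone 3 and the control lines.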

Other observations

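Long non-coding genes also face coding genes head-to-head, and only those of known strand were considered. Among 5′ ends in no coding pair, 1125 faced the 5′ end of a long non-coding gene within 1000 bp. Of these, 56.5, 39.3 and 8.44% had a peak within 500 bp in clones 1, 2 and 3. The share was 30.9, 21.7 and 4.38% among the 12454 unpaired ends with no such neighbour of known strand. The difference was 15.8 ± 10.9 percentage points (SD, n = 3 clones), with the same sign in 3 of 3 clones and an exact sign-flip permutation p = 0.25, the smallest possible. Coding head-to-head 5′ ends exceeded the ends facing a long non-coding gene by 13.9, 14.9 and 6.89 points in clones 1, 2 and 3, with the same p. No control line had a peak at any of these ends.

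Among chromosomes with 50 or more head-to-head windows, the fraction of them that were shared was lowest on chromosome 2, at 37.5% (24 of 64), and highest on chromosomes 19 and 17, at 58.3% (35 of 60) and 58.5% (31 of 53), against 49.3% of all head-to-head windows. On X it was 24.0% (6 of 25), and chromosome 8 had no window of known head-to-head orientation. These are values with no test.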
